A study of Mus musculus with 4 samples.

Results

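Genes for potassium channel subunits were compared between visceral and parietal mesothelium of adult mice on 4 Affymetrix Mouse Gene 1.0 ST arrays. The visceral mesothelium came from the omentum (2 arrays) and the parietal mesothelium was peeled off the muscle of the body wall (2 arrays). All samples came from untreated adult Wt1-cre;Rosa26ReYFP mice on a c57bl/6 background, in which Wt1-cre switches on a yellow fluorescent reporter in cells that express the mesothelial transcription factor Wt1 and in their descendants. RNA was taken from the native tissue without a cell sort named in the methods. By the reporter, the paper judged nearly all of the array input to be mesothelial. RNA of any attached cell type could still be measured too. Replicates are labelled as biological, but the animals behind each are not named, and the p-values therefore cover only the spread among these 4 arrays. The members were all genes whose symbol begins with Kcn, a subfamily letter code and a number, and for which the platform annotation gave a probe with that symbol alone, the brightest probe standing for a gene with several. Of 91 genes with such a symbol, 3 are antisense or opposite-strand RNAs and not subunits, which left 88 subunits in 20 subfamilies out of 19938 genes measured. A further 5 protein-coding genes with such a name in the RefSeq table have no row under this rule and are not analysed here.

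Potassium channels let potassium ions flow down their gradient and so set the resting potential, repolarize excitable cells and regulate cell volume and secretion. Pore-forming subunits assemble around a selective pore. They open with voltage (Kv channels), with intracellular calcium or sodium (BK, SK and Slo2 channels), preferentially to inward current (Kir channels) or as background leaks with tandem pore domains (K2P channels). Auxiliary subunits, such as the KChIP, Kv beta, BK beta and KCNE proteins, make no pore of their own and change the traffic, gating or inactivation of the pore. Epithelia use several of these channels to drive the transport of salt and water.

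Of the 88 subunits, 14 differed between the tissues, with 7 higher in the visceral tissue and 7 in the parietal tissue. To be called, a gene needed an adjusted p (Benjamini-Hochberg, over the limma fit of all 19938 genes) under 0.05 and a fold of at least 1.5, which is 0.58 on the log2 scale. Among all genes 9.6% were called, 5.22% with higher visceral signal and 4.39% with higher parietal signal. The subunits divided by role. Of the 72 pore-forming or electrically silent subunits, 1 was higher in the visceral and 7 in the parietal tissue. Of the 16 auxiliary subunits, 6 were higher in the visceral and none in the parietal tissue. The division between roles itself was not tested. The median log2 difference, visceral minus parietal, was -0.09 over the 88 subunits and 0.00 over all genes, and the median size of the difference was 0.15 and 0.14. The arrays of the tissues did not overlap for 15 subunits with the visceral arrays higher, against 28.9% of all genes, and for 39 with the parietal arrays higher, against 27.4% of all genes. The first is a smaller and the second a larger share of the subunits than of all genes, and these differences in share were not tested.

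**Figure D1:**
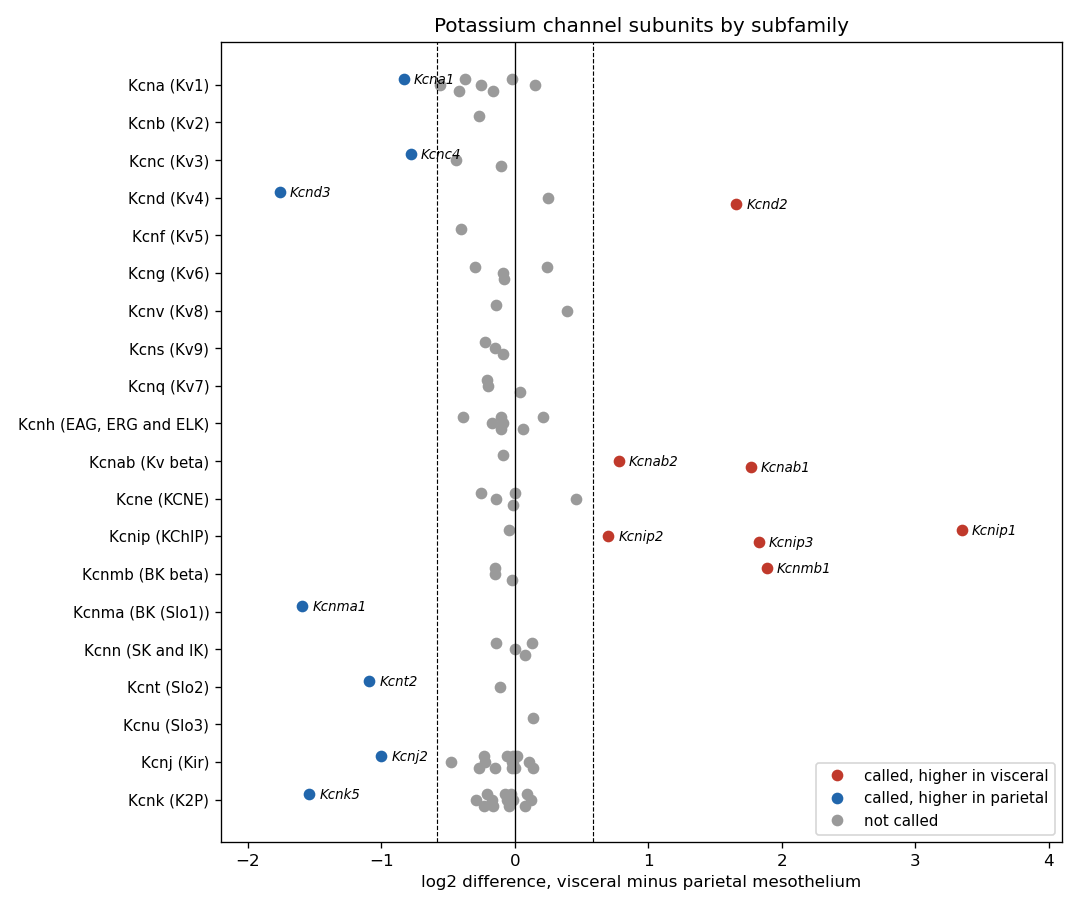
Visceral minus parietal log2 difference (x axis) of the 88 potassium channel subunits by subfamily (y axis). Each point is 1 gene, red if called with the visceral signal higher, blue if called with the parietal signal higher and grey otherwise, and dashed lines mark a fold of 1.5. The called auxiliary subunits, led by Kcnip1 at 3.35, lie on the right, and of the called pore-forming subunits only Kcnd2 does.

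Signals are given as log2 values after RMA, the authors' normalization, and levels of different genes cannot be compared on this scale. Many subunits were dim. A mean above the median of all genes, 7.73, was reached in at least 1 tissue by 24 of the 88 subunits and by 10490 of the 19938 genes. No detection call was used, so a dim signal cannot be told apart from background, and a small difference at such a signal may not be detectable. Folds are ratios of array signals, and where a tissue was dim they do not fix the ratio of transcripts.

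Markers of other cell types moved with the tissues. All 15 skeletal muscle genes measured were higher in parietal mesothelium, their signals on the linear scale summing to 2330 and 2360 in the visceral arrays and to 76600 and 98400 in the parietal arrays. Myl1, a fast myosin light chain, had a log2 difference of -7.28. The macrophage and dendritic cell list had 9 of 10 genes higher in visceral mesothelium and none in parietal mesothelium, with sums of 21100 and 21700 in the visceral and 5280 and 6020 in the parietal arrays. All 7 mast cell genes were higher in visceral mesothelium, with sums of 8860 and 6790 in the visceral and 784 and 876 in the parietal arrays. Of 10 genes of smooth muscle and pericytes, 5 were higher in the visceral tissue and 2 in the parietal tissue, and the sums were 11600 and 9120 in the visceral and 7830 and 9040 in the parietal arrays. Of 9 genes of nerve and Schwann cells measured, none was called, with sums of 1350 and 1390 in the visceral and 1500 and 1620 in the parietal arrays. Of 12 mesothelial markers, Wt1 was higher in visceral mesothelium (0.84) and 6 in parietal mesothelium, among them the surface protein mesothelin, Msln (-2.14). Upk3b, a membrane protein of mesothelium, had log2 signals of 13.59 and 13.65 in visceral and 13.79 and 13.84 in parietal mesothelium. It is 1 of the 5 mesothelial markers that were not called and does not stand for the list. Of 8 endothelial genes 2 were higher in parietal mesothelium, of 6 measured genes of B and T cells 4 were higher in visceral mesothelium, and of 6 adipocyte genes none was called, although their sum was 1940 in parietal replicate 1 and between 821 and 906 in the other arrays. No signal is 0 after RMA, so no marker is absent by value. In bulk tissue a change in the number of cells of a type and a change of RNA per cell cannot be told apart.

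**Figure D2:**
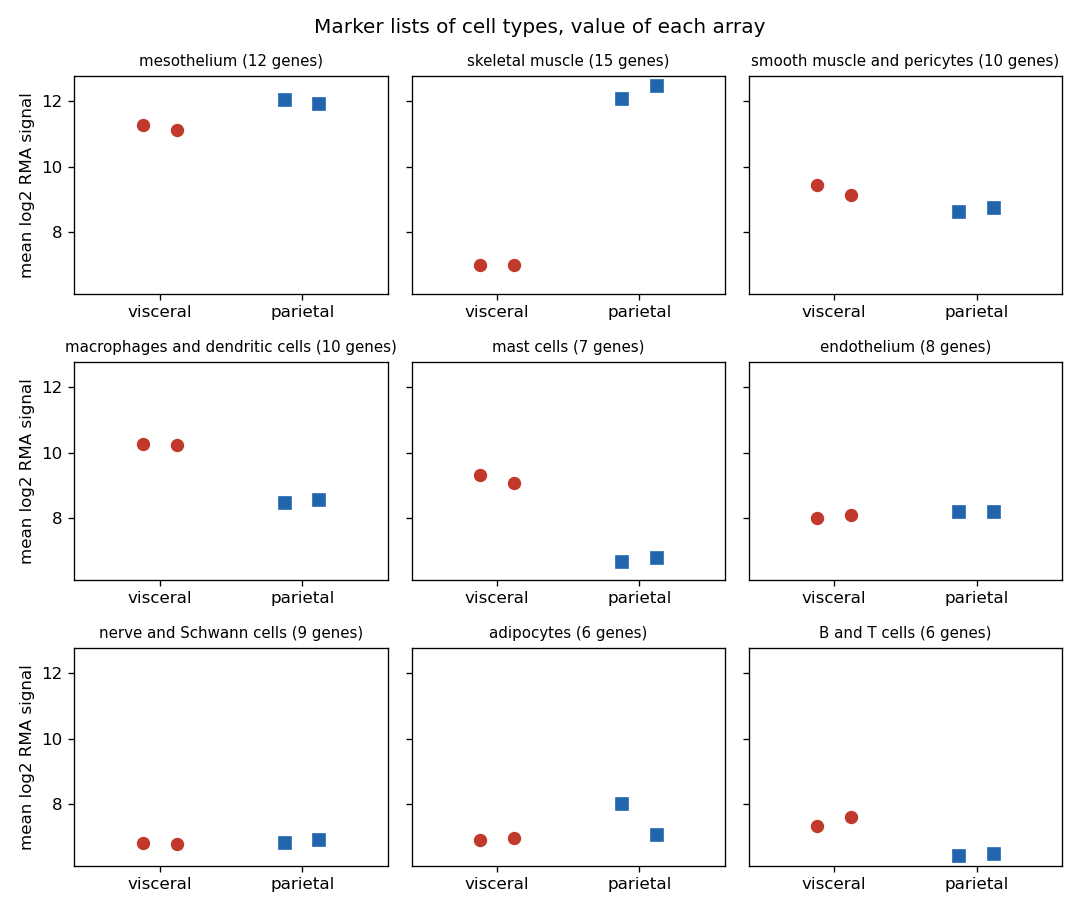
Mean log2 RMA signal of the genes of 9 cell type lists (y axis), visceral arrays as red circles and parietal arrays as blue squares. The skeletal muscle list lies at 6.98 and 6.99 in visceral and at 12.08 and 12.47 in parietal mesothelium, and the list of nerve and Schwann cells at 6.81 and 6.79 in visceral and at 6.81 and 6.89 in parietal mesothelium.

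The subunits of the Kv4 complex, which carries fast transient outward current, divided between the tissues. Kv4 pores bind KChIP proteins, calcium-binding partners that raise their number at the cell surface and slow their inactivation. Of the 4 KChIP genes, 3 were higher in visceral mesothelium. Of the 3 Kv4 pores, Kcnd2 was higher in visceral and Kcnd3 in parietal mesothelium. Kcnip1, which encodes KChIP1, had the largest difference of any subunit, with log2 signals of 9.27 and 8.86 in visceral and 5.80 and 5.64 in parietal mesothelium. Both visceral arrays lay far above both parietal arrays. The gene was 10.2-fold higher in visceral mesothelium (log2 difference 3.35 with a standard error of 0.15, limma adjusted p = 0.000182). Its parietal signals were among the dim ones, below the median of all genes, so this fold is a ratio of signals only. Kcnip3 encodes KChIP3, which is also known as the calcium-regulated transcriptional repressor DREAM. Its signals were 9.67 and 10.14 in visceral and 8.04 and 8.11 in parietal mesothelium, a 3.55-fold excess in visceral mesothelium (log2 difference 1.83 with a standard error of 0.16, limma adjusted p = 0.00158). Kcnip2, whose product is the KChIP of the mouse heart ventricle, was 7.35 and 6.92 in visceral and 6.38 and 6.49 in parietal mesothelium. Its excess in visceral mesothelium of 1.62-fold was smaller than those of the other 2 and rested on single arrays (adjusted p = 0.0366 from limma). Kcnip2 was dim, with means below the median of all genes in both tissues, so its fold too is a ratio of signals only. Without visceral replicate 1 its log2 difference was 0.48 and without parietal replicate 1 it was 0.64, with adjusted p of 0.0673 and 0.077. Kcnip4 did not pass, with a log2 difference of -0.04 (95% confidence interval -0.31 to 0.23).

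Kcnd2 and Kcnd3, the pores themselves, moved in opposite directions. Kcnd2 had log2 signals of 7.78 and 8.35 in visceral and 6.45 and 6.36 in parietal mesothelium. Its visceral arrays were spread more widely than its parietal arrays but lay above both, and the excess in visceral mesothelium was 3.16-fold (log2 difference 1.66 with a standard error of 0.19, limma adjusted p = 0.00391). Kcnd3 had signals of 8.46 and 8.50 in visceral and 10.26 and 10.23 in parietal mesothelium, with replicates almost equal. It was 3.39-fold higher in parietal mesothelium (log2 difference -1.76 with a standard error of 0.08, limma adjusted p = 0.000175), the lowest adjusted p of the 88 subunits. Kcnd1, the third Kv4 pore, was at 7.98 and 8.02 in visceral and 7.80 and 7.71 in parietal mesothelium. Its difference of 0.25 (95% confidence interval 0.04 to 0.45) did not pass after adjustment (adjusted p = 0.128 from limma). Kcnd3os, an RNA transcribed opposite to Kcnd3, was at 7.76 and 7.99 in visceral and 8.19 and 8.17 in parietal mesothelium and did not pass. The skeletal muscle list had its higher values in the same arrays as Kcnd3, and so did the mean of the mesothelial list. Of its 12 genes, 6 were higher in parietal mesothelium and 1 in visceral mesothelium. The lists of macrophages, mast cells, and B and T cells were higher in the same arrays as Kcnd2 and the called KChIP genes. The part of these lists in the differences was not tested.

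Promoter sequences of the Kv4 genes of opposite direction, of Kcnip1 and of Kcnmb1, the smooth muscle subunit described further on, are shown because RefSeq places Kcnmb1 inside Kcnip1, on the opposite strand, and both genes were higher in visceral mesothelium. They are the only pair among the 88 subunits that overlap in that annotation. Each window runs from 250 bases before to 50 after an annotated start in the build GRCm38.p6. That of Kcnip1 is the outermost of 3 annotated starts, at chr11:33993144-33993443 on the minus strand, and that of Kcnmb1 is at chr11:33962763-33963062 on the plus strand, so that a transcript from this Kcnip1 start runs across Kcnmb1. The start used in these tissues is not known from the arrays, and the layout of the probes on the 2 strands is not given in the sources used here. Kcnd2 has its window at chr6:21215096-21215395 and Kcnd3 at chr3:105451640-105451939, both on the plus strand. Capitals mark matches, on either strand, to the E-box CANNTG, a site for basic helix-loop-helix factors, and to the GC box GGGCGG, a site for Sp factors.
Kcnip1: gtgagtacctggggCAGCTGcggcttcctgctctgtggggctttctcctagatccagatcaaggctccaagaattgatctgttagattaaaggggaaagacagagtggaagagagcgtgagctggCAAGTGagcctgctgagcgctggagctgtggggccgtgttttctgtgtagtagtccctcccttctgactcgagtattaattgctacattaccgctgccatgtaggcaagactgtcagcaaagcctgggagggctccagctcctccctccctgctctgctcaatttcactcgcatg
Kcnmb1: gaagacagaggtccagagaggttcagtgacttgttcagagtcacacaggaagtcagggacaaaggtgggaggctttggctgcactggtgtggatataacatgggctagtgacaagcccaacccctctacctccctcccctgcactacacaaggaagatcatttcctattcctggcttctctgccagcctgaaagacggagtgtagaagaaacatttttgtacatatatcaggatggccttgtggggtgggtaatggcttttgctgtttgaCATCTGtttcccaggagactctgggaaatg
Kcnd2: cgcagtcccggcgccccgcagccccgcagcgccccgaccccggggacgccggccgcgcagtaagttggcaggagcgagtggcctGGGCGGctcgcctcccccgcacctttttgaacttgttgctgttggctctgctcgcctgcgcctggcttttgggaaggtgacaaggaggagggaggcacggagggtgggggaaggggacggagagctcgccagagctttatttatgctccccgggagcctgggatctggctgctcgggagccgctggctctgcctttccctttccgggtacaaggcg
Kcnd3: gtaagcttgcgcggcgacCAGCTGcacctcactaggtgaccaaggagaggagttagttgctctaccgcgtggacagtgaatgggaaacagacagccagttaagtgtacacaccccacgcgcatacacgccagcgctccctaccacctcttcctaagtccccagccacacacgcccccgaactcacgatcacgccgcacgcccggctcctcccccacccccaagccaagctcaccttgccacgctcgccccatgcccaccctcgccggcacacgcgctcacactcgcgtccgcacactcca
The Kcnip1 window holds 2 E-box matches, and the windows of Kcnmb1 and Kcnd3 hold 1 each. That of Kcnd2 holds none and 1 GC box match. Over all 32851 windows of RefSeq of this length, 72.3% hold a match to CANNTG and 35.7% a match to GGGCGG. For the called subunits 21 windows of 13 genes were found, of which 17 hold CANNTG and 11 hold GGGCGG. A match to TATAAA was found in 1 of these windows, at Kcnab1, against 13.6% of all windows, and a CArG box, the site of serum response factor, in none, against 1.63% of all windows. The windows of Kcnd2 and Kcnd3 had 26 and 25 CpG dinucleotides, and those shown of Kcnip1 and Kcnmb1 had 7 and 1. Windows 2 and 3 of Kcnip1, at its inner starts and not shown, differed from the outermost. They had 16 and 4 CpG dinucleotides and 3 E-box matches each, and window 2 held 1 GC box match. A match is only a description of the letters and says nothing of a factor at work.

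**Figure D3:**
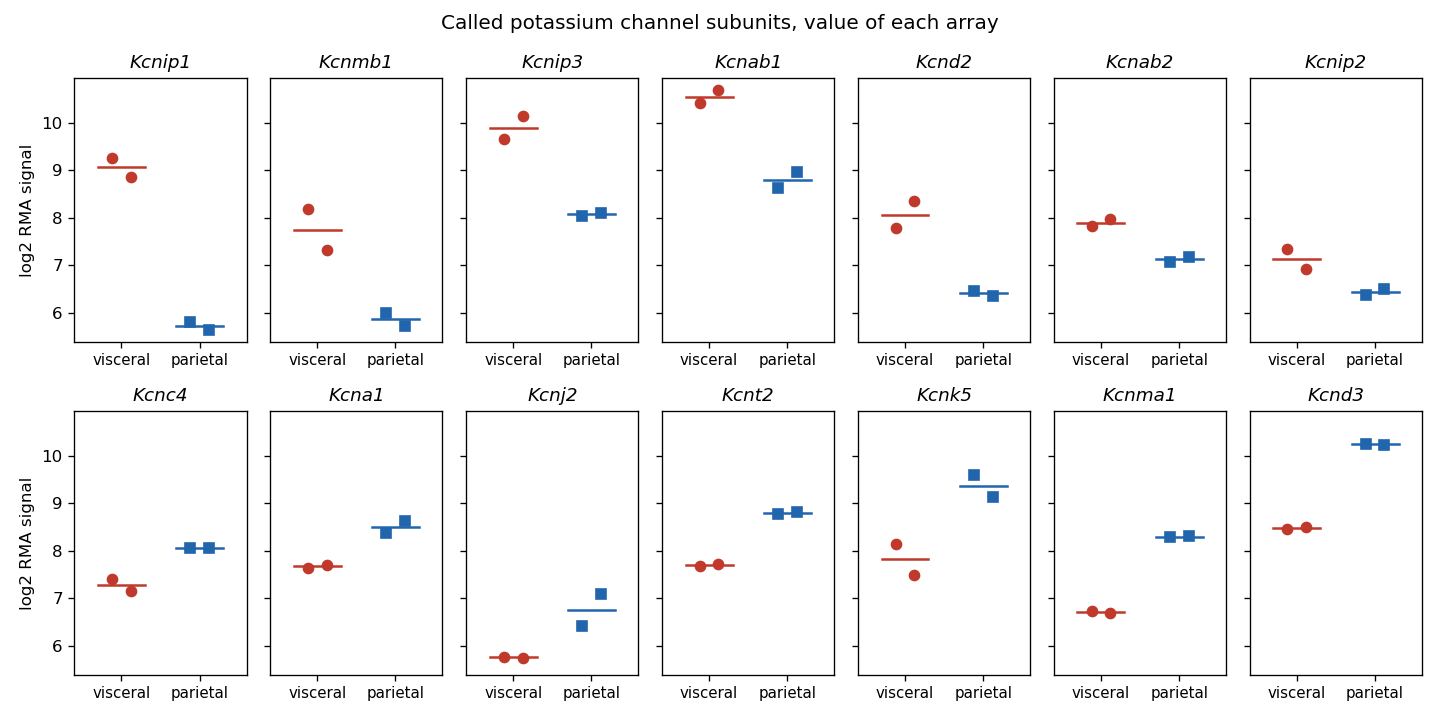
Log2 RMA signal (y axis) of the 14 called potassium channel subunits in each array, visceral arrays as red circles and parietal arrays as blue squares, with a bar at the mean of each tissue. Arrays of the tissues overlap for none of these genes, and Kcnip1 lies at 9.27 and 8.86 in visceral and 5.80 and 5.64 in parietal mesothelium.

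The Kv beta subunits, which attach to the inner face of Kv1 pores and resemble aldo-keto reductases, were higher in visceral mesothelium for 2 of 3 genes. Kcnab1, which speeds the inactivation of Kv1 channels, had log2 signals of 10.43 and 10.69 in visceral and 8.62 and 8.96 in parietal mesothelium. The excess in visceral mesothelium was 3.41-fold, well beyond the spread of the arrays (log2 difference 1.77 with a standard error of 0.15, limma adjusted p = 0.00132). Kcnab2 had signals of 7.82 and 7.98 in visceral and 7.08 and 7.17 in parietal mesothelium, a 1.71-fold excess in visceral mesothelium (adjusted p = 0.00505 from limma). The lists of macrophages and mast cells had their higher values in the same arrays as Kcnab1 and Kcnab2. So did the mean log2 signal of the smooth muscle and pericyte list, at 9.44 and 9.14 against 8.62 and 8.74 in the parietal arrays. Its 10 genes were mixed, with 5 called for a larger visceral signal, 2 for a larger parietal signal and 3 not called. The part of these lists in Kcnab1 and Kcnab2 was not tested. Kcnab3 did not pass (log2 difference -0.09, 95% confidence interval -0.33 to 0.16).

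None of the 8 Kv1 pores, to which these proteins bind, was called with a higher visceral signal. The 1 that was called was Kcna1, a pore of axons and of other excitable cells. Its signals were 7.64 and 7.71 in visceral and 8.38 and 8.64 in parietal mesothelium. It was 1.78-fold higher in parietal mesothelium (log2 difference -0.83, adjusted p = 0.0068 from limma). Kcna4, which makes inactivating channels, was at 5.37 and 5.38 in visceral and 5.88 and 5.99 in parietal mesothelium, with an adjusted p of 0.0108 from limma but a log2 difference of -0.56, just short of the fold required. Kcna7, known from skeletal muscle, was at 7.18 and 7.25 in visceral and 7.47 and 7.79 in parietal mesothelium and did not pass (log2 difference -0.42, adjusted p = 0.0923 from limma). Kcna3, the Kv1 pore of T lymphocytes, was at 8.14 and 8.24 in visceral and 8.05 and 8.04 in parietal mesothelium, a difference of 0.15 (95% confidence interval -0.06 to 0.36). The remaining 4 Kv1 genes, Kcna2, Kcna5, Kcna6 and Kcna10, had differences between -0.37 and -0.02.

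Among the Kv3 pores, which allow rapid firing, Kcnc4 was higher in parietal mesothelium, with log2 signals of 7.40 and 7.16 in visceral and 8.06 and 8.06 in parietal mesothelium (1.72-fold, log2 difference -0.78, adjusted p = 0.00694 from limma). Kcnc1 had a difference of -0.44, with an adjusted p of 0.0207 but a fold below 1.5, and Kcnc2 one of -0.10. Of the KCNE proteins, single-span partners of several Kv pores, none of 5 was called. Kcne3, which joins Kcnc4 in skeletal muscle and Kcnq1 in gut epithelium, was at 6.45 and 6.43 in visceral and 5.96 and 6.00 in parietal mesothelium, a difference of 0.46 in the direction opposite to Kcnc4, with an adjusted p of 0.0158 from limma and a fold under 1.5. Skeletal muscle genes moved in the direction of Kcna1 and Kcnc4, and so did the mean of the mesothelial list. The list of nerve and Schwann cells had no called gene. Its summed signal was 1350 and 1390 in the visceral and 1500 and 1620 in the parietal arrays. The mean log2 signal of that list was 6.81 and 6.79 in the visceral and 6.81 and 6.89 in the parietal arrays. The part of these lists in the differences was not tested.

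No other voltage-gated pore was called. Kcnb2, the 1 Kv2 gene with a row, differed by -0.27. Of the 3 Kv7 genes, which include the cardiac and epithelial pore Kcnq1 (0.04, 95% confidence interval -0.16 to 0.25), the lowest adjusted p was that of Kcnq3, 0.329 from limma (log2 difference -0.20). Of the 7 genes of the EAG, ERG and ELK channels, Kcnh3 came nearest, at 8.24 and 8.42 in visceral and 8.76 and 8.69 in parietal mesothelium (log2 difference -0.39, adjusted p = 0.053 from limma). Kcnh2, the pore of the cardiac rapid repolarizing current, differed by 0.06 (95% confidence interval -0.14 to 0.26). The electrically silent subunits, which make no channel alone and modify Kv2 pores, were likewise not called in any of 10 genes, with differences between -0.40 (Kcnf1) and 0.39 (Kcnv1). Among the other silent subunits the lowest adjusted p of the Kcng and Kcns genes were those of Kcng2 (-0.30, 0.0847 from limma) and Kcns1 (-0.22, 0.173).

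The BK channel, opened by calcium and voltage together, had its pore and 1 of its 4 beta subunits called in opposite directions. The call of the pore rests on the brighter of its 2 probes. Kcnma1, the pore, had log2 signals of 6.74 and 6.69 in visceral and 8.29 and 8.31 in parietal mesothelium. The replicates were nearly equal, and the gene was 3.01-fold higher in parietal mesothelium (log2 difference -1.59 with a standard error of 0.08, limma adjusted p = 0.000251). A second, dimmer probe of Kcnma1 was at 5.22 and 5.17 in visceral and 5.20 and 5.34 in parietal mesothelium and differed by only -0.08, so the probes disagree. On their mean the difference was -0.84 (adjusted p = 0.00228 from limma). Kcnmb1, the BK beta subunit of smooth muscle, which makes the channel more sensitive to calcium, was at 8.19 and 7.32 in visceral and 6.00 and 5.72 in parietal mesothelium. It was 3.72-fold higher in visceral mesothelium (log2 difference 1.89, adjusted p = 0.00979 from limma), with the widest spread of the called visceral values, an SD of 0.61 (n = 2 arrays). The smooth muscle and pericyte list was also higher in visceral replicate 1 than in visceral replicate 2, but its genes did not move as 1 group. The smooth muscle myosin Myh11 (2.67), Tagln, Cnn1, Smtn and Pdgfrb were higher in visceral mesothelium, Des (-1.49) and Rgs5 (-1.18) in parietal mesothelium, and Acta2 (0.55), Cspg4 (0.16) and Notch3 (-0.03) did not pass. The part of smooth muscle in Kcnmb1 was not tested. Skeletal muscle genes and the mean of the mesothelial list were higher in the same arrays as Kcnma1, and their part was not tested. The other 3 BK beta genes, Kcnmb2, Kcnmb3 and Kcnmb4, had differences between -0.15 and -0.02 and did not pass.

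Of the Slo2 channels, which open with intracellular sodium, Kcnt2 had log2 signals of 7.69 and 7.73 in visceral and 8.77 and 8.83 in parietal mesothelium. The arrays of each tissue lay close together and the gene was 2.13-fold higher in parietal mesothelium (log2 difference -1.09 with a standard error of 0.08, limma adjusted p = 0.000844). The skeletal muscle list and the mean of the mesothelial list were higher in the same arrays, and their part in Kcnt2 was not tested. The relative of Kcnt2, Kcnt1, differed by -0.11 and did not pass. The 4 calcium-activated channels of small and intermediate conductance were not called, with differences between -0.14 and 0.13. Kcnn1 had the lowest adjusted p among them, 0.363 from limma, with a difference of 0.13. Kcnn4, the channel of lymphocytes, macrophages and mast cells, was at 7.53 and 7.39 in visceral and 7.38 and 7.40 in parietal mesothelium (0.08, 95% confidence interval -0.15 to 0.30). Kcnn4 was dim, with means below the median of all genes in both tissues. The median differences of the macrophage and mast cell lists over the same arrays were 1.65 and 1.78, and their relation to Kcnn4 was not tested. Kcnu1, the Slo3 pore of sperm, differed by 0.14, with visceral arrays as far apart as 5.95 and 6.68.

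Of 15 inward rectifiers 1 was called. Kcnj2, a strong rectifier that holds the resting potential of muscle, had log2 signals of 5.77 and 5.74 in visceral and 6.41 and 7.09 in parietal mesothelium. The parietal arrays had an SD of 0.49 (n = 2), and the gene was 1.99-fold higher in parietal mesothelium (log2 difference -1.00, adjusted p = 0.0362 from limma). Kcnj2 was dim, with means below the median of all genes in both tissues, so this fold is a ratio of signals only. Without visceral replicate 1 the adjusted p was 0.12 and without visceral replicate 2 it was 0.132, and the difference was -0.65 without parietal replicate 2. The summed skeletal muscle signal was likewise higher in parietal replicate 2 (98400) than in parietal replicate 1 (76600). The mean log2 signal of the mesothelial list was 11.26 and 11.11 in visceral and 12.03 and 11.91 in parietal mesothelium. The part of either list in Kcnj2 was not tested. Kcnj11, the pore of ATP-sensitive channels of beta cells and skeletal muscle, was at 7.16 and 7.54 in visceral and 7.74 and 7.92 in parietal mesothelium and did not pass (log2 difference -0.48, adjusted p = 0.0985 from limma). Kcnj8, the vascular and pericyte pore of the same channel type, was at 8.23 and 8.13 in visceral and 8.03 and 8.05 in parietal mesothelium, a difference of 0.14 (95% confidence interval -0.07 to 0.35). The other 12 inward rectifiers had differences between -0.27 and 0.11.

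Of 14 K2P leak channels 1 was called. Kcnk5, an alkaline-activated leak channel known from kidney epithelium, had log2 signals of 8.14 and 7.50 in visceral and 9.60 and 9.13 in parietal mesothelium. Replicates were spread in both tissues, but all visceral values lay below all parietal values and the gene was 2.92-fold higher in parietal mesothelium (log2 difference -1.54 with a standard error of 0.25, limma adjusted p = 0.0127). The skeletal muscle list was higher in the same tissue as Kcnk5, with the higher sum in parietal replicate 2. The mean log2 signal of the 12 mesothelial markers was 11.26 and 11.11 in visceral and 12.03 and 11.91 in parietal mesothelium, in the same order of arrays within each tissue as Kcnk5. The part of either list in Kcnk5 was not tested. On leaving out each array Kcnk5 stayed called, with differences between -1.86 and -1.23. Kcnk6, a leak channel known from macrophages, was at 9.60 and 9.80 in visceral and 9.63 and 9.54 in parietal mesothelium, a difference of 0.12 (95% confidence interval -0.14 to 0.37). The remaining 12 K2P genes had differences between -0.29 and 0.09, among them the mechanosensitive channel Kcnk2 at -0.16.

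Leaving out each array in turn separated the firmer calls from the weaker ones. Of the 14 called subunits, 12 were called in each of the 4 reduced fits, and Kcnip2 and Kcnj2 in 2 of them each. Kcnd3, Kcnma1 and Kcnt2 moved least, with ranges of -1.78 to -1.74, -1.61 to -1.57 and -1.12 to -1.06. For Kcnma1 these fits used only the brighter probe. Kcnmb1 ranged between 1.46 and 2.33 and Kcnd2 between 1.37 and 1.95, while Kcnip1 kept a difference of at least 3.14. With 1 array left in a tissue, that array is assumed to vary like those of the other tissue.

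**Figure D4:**
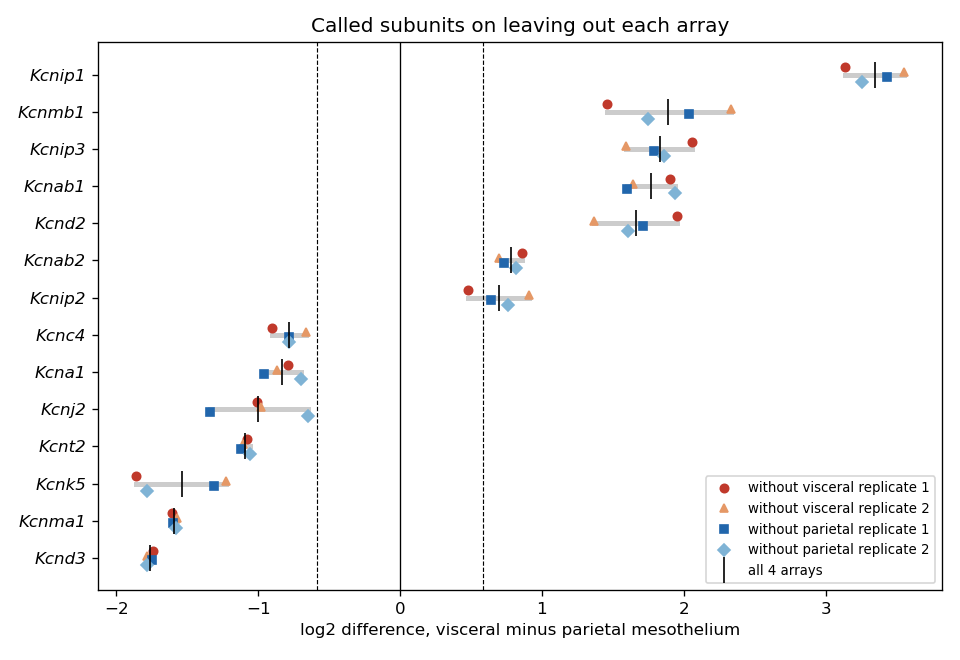
Visceral minus parietal log2 difference (x axis) of the 14 called subunits (y axis) with all 4 arrays (black bar) and without each array in turn (coloured points), with dashed lines at a fold of 1.5. No difference changes sign, and none could, because the arrays of the tissues do not overlap for these genes. The difference of Kcnip2 lies at 0.48 without visceral replicate 1.

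Genes that work beside the channels were counted in 4 lists, and differences between the lists were not tested. Of 11 partners of potassium channels outside the Kcn names, none was called. Of these, Cntnap2 had an adjusted p of 0.0282 from limma but a log2 difference of -0.53, short of the fold required. Abcc9, the sulfonylurea receptor that joins Kcnj8 and Kcnj11, was at 9.29 and 9.09 in visceral and 8.34 and 8.94 in parietal mesothelium and did not pass (log2 difference 0.55, adjusted p = 0.153 from limma). The Kv4 partners Dpp6 and Dpp10 differed by -0.05 and 0.13, and did not pass. Of 12 measured genes for subunits of the sodium pump, which imports potassium, and for its FXYD regulators, 3 had a higher visceral and 4 a higher parietal signal. Of the 7, 4 are FXYD regulators and 3 are beta subunits or their relatives. Atp1a4, the alpha subunit of sperm, was the only catalytic subunit with a row under this rule and was not called (-0.27), and the other alpha subunits are not analysed here. Fxyd5 was at 12.64 and 12.79 in visceral and 10.75 and 10.95 in parietal mesothelium (3.65-fold, adjusted p = 0.000383 from limma), and Fxyd2, the regulator of the kidney pump, differed by 1.03. Fxyd3 was at 8.81 and 8.51 in visceral and 11.30 and 11.10 in parietal mesothelium (5.82-fold, adjusted p = 0.000267 from limma), and Fxyd6 differed by -1.59. The beta subunits divided too. Atp1b2 was higher in visceral mesothelium (0.90) and Atp1b1, the common beta subunit of epithelia, in parietal mesothelium (-0.79). Atp1b4, a muscle protein of the same family, differed by -1.01 but was not called without visceral replicate 1 or 2 (adjusted p of 0.0563 and 0.06). Skeletal muscle genes and the mean of the mesothelial list were higher in the same arrays as Atp1b4. The lists of macrophages, mast cells, and B and T cells were higher in the same arrays as Fxyd5. The mean log2 signal of the smooth muscle and pericyte list, whose genes were mixed, was also higher in these arrays. The part of these lists was not tested. None of 6 cation-chloride cotransporters and none of 3 cyclic nucleotide-gated HCN channels was called. Among the cotransporters, Slc12a7 had an adjusted p of 0.013 from limma but a log2 difference of 0.55, also short of the fold required. Over the 4 lists, 7 of 32 genes were called, all of them in the sodium pump list, against 9.6% of all genes. This difference in share was not tested.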

How the data were processed

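RNA of 2 visceral and 2 parietal mesothelium samples was hybridized to Affymetrix Mouse Gene 1.0 ST arrays. The authors deposited log2 values made by RMA (background correction, quantile normalization between arrays, 1 summary value for each probe set); the submitters' processing notes name Partek 6.6. Array medians lay between 7.38 and 7.41. The library version is not given in the sources used here, and scan batches were not analysed here.

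Of 35556 probes, 21789 carried 1 gene symbol, 1621 several and 12146 none; 21698 were found in the RefSeq table of GRCm38.p6 and none changed symbol. The probe with the highest mean stood for each of 19938 genes (3 subunits had more than 1 probe). limma 3.58.1 in R 4.3.3 was fitted over all genes without a block, and the script was checked beforehand on simulated data. The arrays' number limits the precision. Promoter windows were taken from RefSeq; 67 of the 88 subunits had one.

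The members, lists and tests were chosen with earlier results of these data known. Named genes are all called subunits, the subunit with the lowest adjusted p of each subfamily without a call, called genes of the partner, pump, cotransport and HCN lists and up to 3 genes of each marker list. Other subunits, Kcnd3os, Upk3b, Wt1, the remaining smooth muscle genes and uncalled partners and cotransporters are named outside this rule, after their values were seen. The alternatives tried were other thresholds, another variance prior, 2 normalizations, a filter on dim genes, the mean of a gene's probes, a fit over all probes, the methods' t-test (adjusted or not), the replicate number as a block, and fits without each array in turn.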

Additional observations from a re-analysis of the deposited data

How the results depend on the processing

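All 14 called subunits kept their direction under median centring, quantile normalization, the mean of a gene's probes and on leaving out each array. Arrays of the tissues did not overlap for these genes, so leaving out 1 array cannot reverse a direction. The deposited values were already quantile normalized by RMA, so the 2 normalizations could change little. The other alternatives leave the difference itself as it is and bear only on the call. The count stayed at 14 with a looser adjusted p, another variance prior, median centring, quantile normalization and the mean of a gene's probes. With no minimum fold it was 17, adding Kcna4, Kcnc1 and Kcne3. A filter on dim genes and a fit over all probes gave 12 each, without Kcnip2 and Kcnj2, and leaving out each array gave 12 to 14, with Kcnj11 added without visceral replicate 2 and Kcna4 added without parietal replicate 1. The methods' t-test, a one-way ANOVA, called 0 of all 19938 genes, and so 0 subunits in either direction and 0 partner and transport genes after Benjamini-Hochberg adjustment (lowest adjusted p of a subunit 0.0992), and 10 subunits among 1582 genes without adjustment, at p under 0.05 with the same minimum fold of 1.5; Kcnip2, Kcnj2, Kcnk5 and Kcnmb1 were lost. The paper reports differing probes from a one-way ANOVA with Benjamini-Hochberg adjustment at the same thresholds. The 0 here, on 1 probe per gene, did not reproduce that result, and the reason was not tested. The labels give both tissues the replicate numbers 1 and 2 without saying what a number shares. Deviations of same-numbered arrays correlated at 0.36 over all genes, which are not independent replicates, and at 2 pairs do not establish pairing. With the replicate block 14 subunits and 7 partner and transport genes were called, and the block changed no call of a subunit. Partner and transport genes numbered 5 to 10 under the alternatives other than the adjusted t-test. The 2 arrays per tissue and the dim signal of most subunits limit what could be detected.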
